A study of Bos taurus with 9 samples.

Results

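The plasma cell genes JCHAIN (ENSBTAG00000018531) and XBP1 (ENSBTAG00000005970) were followed in whole rectal tissue of 9 feedlot steers, as 2 of the 24616 Ensembl genes in the deposited table of CPM, the reads on a gene scaled to the same total in every library. They were picked by name and identifier rather than by a threshold on their values, and MS4A1 (ENSBTAG00000004580) and AGR2 (ENSBTAG00000024406) were taken as reference genes for B cells and for secretory epithelium. Super-shedders (SS, steers 274, 287, 294, 299 and 310, n = 5) had E. coli O157:H7 above the shedding threshold of the study in their faeces when first sampled, and non-shedders (NS, steers 108, 152, 165 and 242, n = 4) were pen-mates that tested negative. All were British x Continental steers on a finishing diet of barley grain. Tissue was taken days after that sampling, when not every SS was still above the threshold. Colonization was natural, and no agent was given to either group. Tissue was taken at slaughter a short distance above the recto-anal junction (RAJ), and 1 library of total RNA, depleted of rRNA and stranded, was made per steer. A biopsy of this kind holds epithelium, lamina propria, lymphoid follicles and muscle in unknown shares. In such bulk tissue, fewer cells of a type and less RNA per cell cannot be told apart.

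JCHAIN encodes the joining chain, a small protein that links IgA or IgM monomers into polymers. The polymeric immunoglobulin receptor (PIGR) of the epithelium binds these polymers and carries them into the gut lumen as secretory IgA and IgM, so JCHAIN is a marker of the antibody-secreting cells of mucosa. XBP1 encodes a transcription factor of the unfolded protein response, whose mRNA is spliced by the endoplasmic reticulum (ER) stress sensor IRE1. It drives the expansion of the ER that plasma cells need to secrete antibody, and it also acts in goblet cells and other secretory epithelium. MS4A1 encodes CD20, which B cells of follicles carry and plasma cells lose. AGR2 encodes a protein disulfide isomerase of the ER of goblet cells that helps to make mucin. CPM is not corrected for transcript length, so levels were compared between steers and not between genes, and values per gene do not separate spliced from unspliced XBP1 mRNA.

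The 9 libraries held 5412523 to 12278503 reads on genes, so that a gene without reads could still be at 0.244 CPM in the deepest library and 0.554 CPM in the shallowest, from counting error only (3 counts of the total). The libraries of SS 274 and SS 294 stood apart in their fibroblast genes, and with NS 242 they had the least epithelial RNA. The summed level of 10 pan-epithelial genes was 802 CPM in SS 274 and 70.2 CPM in SS 294, against 671 CPM in NS 242, 2692 CPM in SS 299 and 5342 to 7039 CPM in the other 5 steers. The summed level of 5 fibroblast genes was 21688 CPM in SS 274 and 13791 CPM in SS 294, against 1750 to 7042 CPM in the other 7 steers. The summed level of 8 smooth muscle genes was lowest in SS 274, at 371 CPM, and highest in SS 294, at 53408 CPM. No gene of these 3 lists was at 0 in any steer. Results on JCHAIN and XBP1 are given with and without SS 274 and SS 294, a choice made after the values were seen that keeps NS 242, and the part of tissue makeup in them was not tested.

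**Figure D1:**
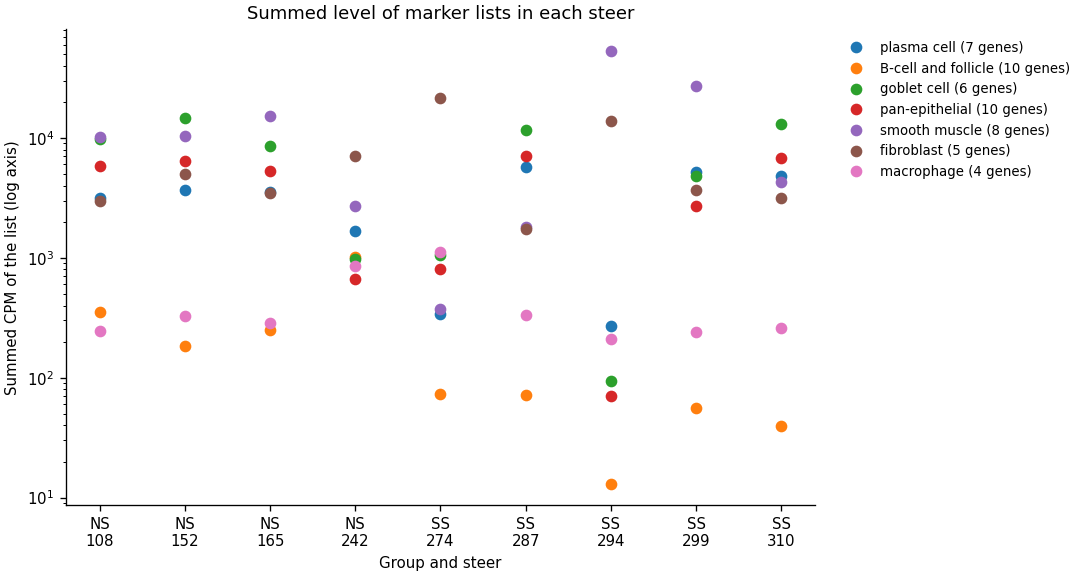
Summed CPM (log axis) of the genes of 7 marker lists in each of the 9 steers, with 1 point per list and steer. The fibroblast points are highest in SS 274 and SS 294, at 21688 and 13791 CPM, where the plasma cell points (in the other steers mostly JCHAIN) are lowest, while NS 242 has less of the pan-epithelial genes than SS 274 (671 against 802 CPM) and more of the plasma cell genes (1681 against 339 CPM).

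JCHAIN differed more among SS than between SS and NS. Its level was 2506, 3061, 2944 and 1169 CPM in NS 108, 152, 165 and 242. In SS it was 59.3 CPM in steer 274, 4992 CPM in steer 287, 86.9 CPM in steer 294, 4705 CPM in steer 299 and 4021 CPM in steer 310. The NS thus lay between the SS, with 3 SS above every NS, 2 SS below every NS and no SS among them. The highest SS level was 84.2 times the lowest, against 2.62 times in NS.

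JCHAIN had 321 reads in SS 274 and 651 reads in SS 294, with 95% counting intervals of 53.0 to 66.2 CPM and 80.3 to 93.8 CPM. NS 242, the next steer in order, was 13.4-fold above SS 294. The other neighbours in order were 1.04 to 2.14-fold apart, and no pair of neighbours had overlapping counting intervals, although these intervals cover counting error only and not the variation among biopsies of 1 steer, which was not measured. JCHAIN took 0.117% to 0.499% of all reads on genes in the other 7 steers and 0.006% and 0.009% in SS 274 and SS 294.

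No difference of JCHAIN between SS and NS passed the test. The mean on the log2(CPM + 0.5) scale was 9.76 ± 3.28 (SD, n = 5) in SS and 11.15 ± 0.65 (SD, n = 4) in NS, a difference of -1.38 (SE 1.45, 95% interval -4.64 to 1.87; limma, adjusted p = 0.936). The exact permutation test over steers, on both sides, gave p = 0.556, where the smallest p that 126 splits of the steers can give is 0.0159. None of 15410 genes tested was called by limma, which asked for a log2 difference beyond 1 in size with adjusted p below 0.05 (0.0%), while 3.96% had an unadjusted p below 0.05. By the same rule edgeR called 0.0% and DESeq2 called 0.125% of the genes it gave an adjusted p, and JCHAIN and XBP1 were not among them. The direction for JCHAIN rested on the scale and on 2 steers. On the scale of CPM the mean of SS was 2773 ± 2489 (SD, n = 5) against 2420 ± 868 (SD, n = 4) in NS, 1.15 times as high (exact permutation test, p = 0.810), and the counts gave a log2 difference of 0.27 in edgeR and 0.28 in DESeq2. Without SS 274 and SS 294, which were left out after their values were seen, the log2 difference was 1.01, with no test.

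XBP1 had the same 3 lowest steers as JCHAIN, with SS 274 and SS 294 in the opposite order, and a smaller spread. Its level was 362, 446, 394 and 192 CPM in NS 108, 152, 165 and 242, and 180 CPM in SS 274, 454 CPM in SS 287, 119 CPM in SS 294, 268.5 CPM in SS 299 and 486 CPM in SS 310. SS 287 and SS 310 were above every NS, SS 274 and SS 294 were below every NS, and SS 299 was within the NS. The counting intervals of SS 274 and NS 242 overlapped, as did those of NS 152 and SS 287. The highest level was 4.09 times the lowest in SS and 2.32 times in NS.

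For XBP1 the log2 means were 8.04 ± 0.87 (SD, n = 5) in SS and 8.38 ± 0.54 (SD, n = 4) in NS. The difference of -0.34 (SE 0.44, 95% interval -1.33 to 0.66) did not pass the test (limma, adjusted p = 0.936). It was -0.19 after median-of-ratios scaling, which moved the median difference of all genes from -0.13 to 0.01, and without SS 274 and SS 294 it was 0.23. The interval leaves room for a level in SS from 0.40 to 1.58 times that of NS.

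**Figure D2:**
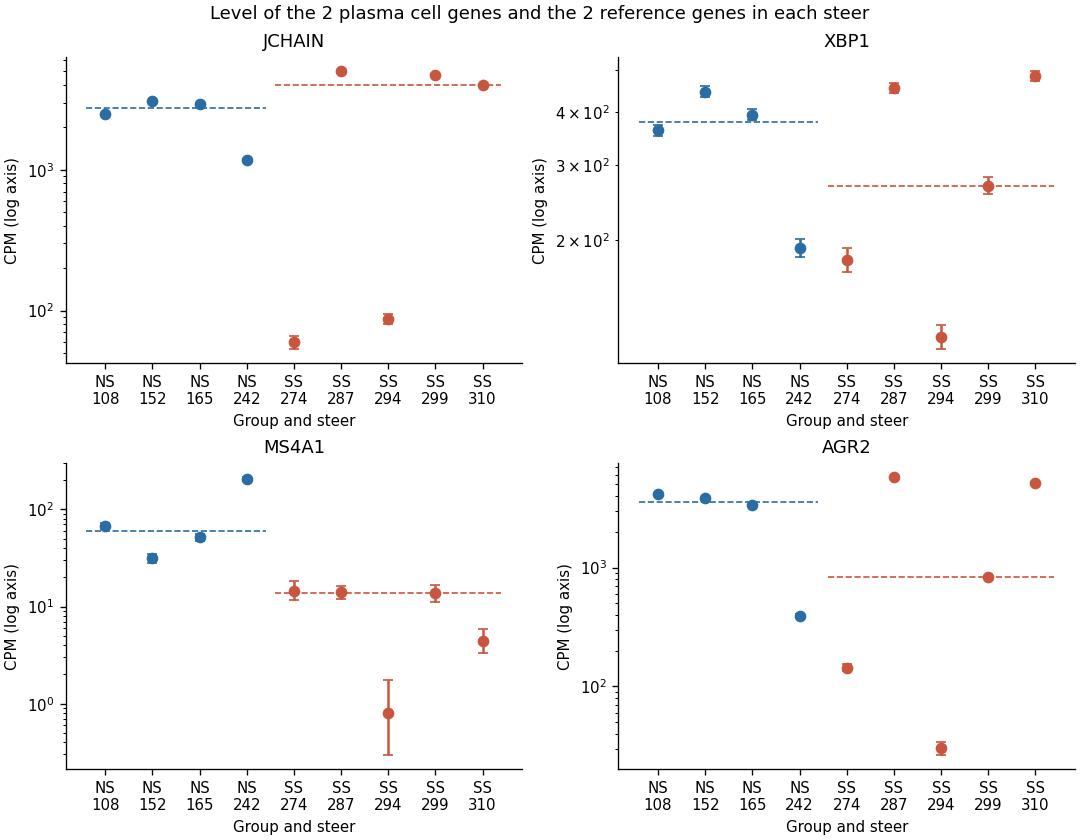
CPM (log axes that do not start at 0, a range of its own for each gene) of JCHAIN, XBP1, MS4A1 and AGR2 in each steer, with 95% counting intervals as bars and the median of each group as a dashed line. JCHAIN of SS falls into 3 steers at 4021 to 4992 CPM and 2 steers at 59.3 and 86.9 CPM, on both sides of the NS, while every MS4A1 value of SS is below every NS.

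The order of JCHAIN among steers, which JCHAIN itself defines here, was looked for in the other genes as a description. SS 274 and SS 294 were both below every other steer for 20.0% of the genes tested, while SS 287, SS 299 and SS 310 were all above every NS for 0.889%. Both orders held for 29 genes (0.188%), of which JCHAIN and GCNT4, a glycosyltransferase that builds branched O-glycans, have a symbol here. For GCNT4 this is a near tie, with 82.8 CPM in SS 310 and 82.7 CPM in NS 108. Of the 27 without one, ENSBTAG00000047700 had the highest mean CPM (not corrected for length), at 15.5 and 36.6 CPM in SS 274 and SS 294, 2720 to 3809 CPM in the other SS and 216 to 1801 CPM in NS. This gene was singled out after its values were seen.

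The ratio of JCHAIN to XBP1 within a steer was even in NS and uneven in SS. It was 6.92, 6.86, 7.47 and 6.08 in NS 108, 152, 165 and 242, which is an SD of 0.12 on the log2 scale. In SS it was 0.329 in steer 274, 11.0 in steer 287, 0.731 in steer 294, 17.5 in steer 299 and 8.28 in steer 310, an SD of 2.56. Every SS was outside the range of NS, with 3 above and 2 below. The mean log2 ratio did not differ between the groups beyond the spread between steers (difference -1.05, exact permutation test, p = 0.556, adjusted p = 0.667 over 6 ratios), and it was 0.78 without SS 274 and SS 294. SS 299 had the second highest JCHAIN level and an XBP1 level below 3 of the 4 NS.

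The B-cell reference gave another order of the steers. MS4A1 was 68.0, 31.3, 51.7 and 206 CPM in NS 108, 152, 165 and 242, and 14.6, 14.1, 0.801, 13.8 and 4.43 CPM in SS 274, 287, 294, 299 and 310. All SS were below all NS, an order found for 2.1% of the genes tested, with a log2 difference of -3.26 (SE 0.81; limma, adjusted p = 0.928; exact permutation test, p = 0.0159). MS4A1 was among the genes that the study chose on these steers, so its direction is no independent evidence. SS 287, 299 and 310 combined the highest JCHAIN levels of the series with MS4A1 levels under those of every NS.

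The difference between JCHAIN and MS4A1 was tested as a ratio. JCHAIN was 36.8, 97.7, 56.9 and 5.66 times MS4A1 in NS 108, 152, 165 and 242. In SS 287, 299 and 310 it was 355, 341 and 908 times, while SS 294 with 108 times was just above NS 152 when 0.5 CPM is not added, and SS 274 with 4.06 times was below every NS. The mean log2 ratio was 1.88 higher in SS (exact permutation test, p = 0.333, adjusted p = 0.667), and 3.79 higher without SS 274 and SS 294. XBP1 was 5.33, 14.2, 7.62 and 0.932 times MS4A1 in NS, and 12.3, 32.3, 148 (with 6 MS4A1 reads), 19.5 and 110 times in SS 274, 287, 294, 299 and 310. Its log2 ratio was 2.93 higher in SS, with 4 of 5 SS above every NS (exact permutation test, p = 0.0317), and the adjusted p over the 6 ratios was 0.190. It was 3.02 without SS 274 and SS 294. XBP1 itself differed by -0.34 and MS4A1 by -3.26, so the whole rise of this ratio is that of MS4A1, and XBP1 made it smaller. The study chose MS4A1 on these steers, and neither ratio to MS4A1 is independent evidence.

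AGR2, the epithelial reference, was 4133, 3818, 3348 and 395 CPM in NS 108, 152, 165 and 242, and 144, 5738, 30.2, 832 and 5129 CPM in SS 274, 287, 294, 299 and 310. The steers that were low in AGR2 were those low in XBP1. AGR2 varied more than XBP1, so the ratio of XBP1 to AGR2 was 0.0791 to 0.118 in the 5 steers with the most AGR2, 0.323 in SS 299, 0.487 in NS 242, 1.25 in SS 274 and 3.94 in SS 294. This log2 ratio did not separate the groups (difference 1.40, exact permutation test, p = 0.381, adjusted p = 0.667), and it was -0.21 without SS 274 and SS 294.

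**Figure D3:**
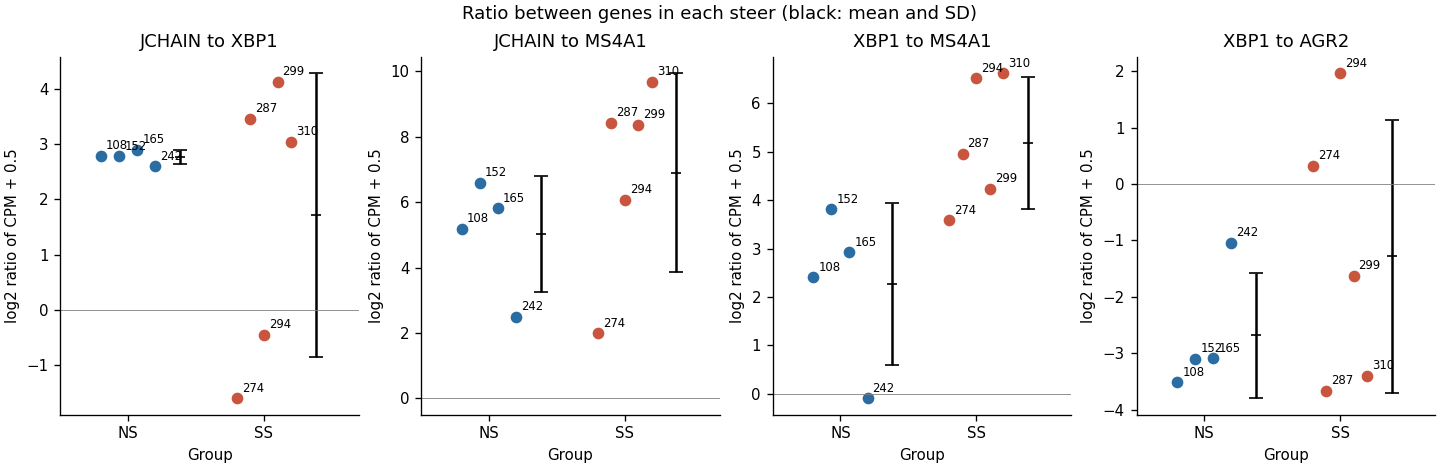
Log2 ratio of CPM + 0.5 between pairs of the 4 genes in each steer, with the mean and SD of each group in black. The 4 NS lie close together for JCHAIN to XBP1 (SD 0.12) and the SS lie on both sides of them (SD 2.56), while for XBP1 to MS4A1 4 of 5 SS are above every NS, with MS4A1 a gene that the study chose on these steers.

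The pairs of the 4 genes were compared over steers. Since SS 274 and SS 294 formed a cluster of their own for JCHAIN, no correlation was tested over all 9 steers, and the groups hold too few steers for a correlation within each. Over the other 7 steers JCHAIN and XBP1 gave Pearson r = 0.67 and Spearman rho = 0.57. These values are a description with no p, since the 7 steers were set by JCHAIN itself. Without NS 242 and SS 287, the steers farthest from the median of JCHAIN, r was -0.34. The relation rested on NS 242, since r was -0.076 without this steer alone and 0.62 without SS 287 alone. XBP1 and AGR2 gave r = 0.97 (exact permutation test, p = 0.00675, adjusted p = 0.0333) and rho = 0.86 (p = 0.0238 by the exact permutation test, adjusted p = 0.0714), and r was 0.60 without NS 242 and SS 299, the steers farthest from the median of XBP1.

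JCHAIN and MS4A1 ran in opposite directions over these 7 steers, with r = -0.88 and rho = -0.86, and r was -0.83 without NS 242 and SS 287. These values too are given as a description with no p, since the 7 steers were set by JCHAIN itself and MS4A1 was chosen by the study as a gene that differs between SS and NS. The 3 SS were at 1 end of this relation and the 4 NS at the other, so relation and group cannot be told apart. Within the 4 NS the genes had opposite orders. Within the 3 SS both rose together, with JCHAIN at 4021, 4705 and 4992 CPM and MS4A1 at 4.43, 13.8 and 14.1 CPM in SS 310, 299 and 287. The MS4A1 counting intervals of SS 299 and SS 287 overlapped. The opposite relation did not hold over all 9 steers, where r was 0.37 with SS 274 and SS 294 included, given as a description because of their cluster. SS 274 had the lowest JCHAIN level, with an MS4A1 level whose counting interval overlapped that of SS 287.

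**Figure D4:**
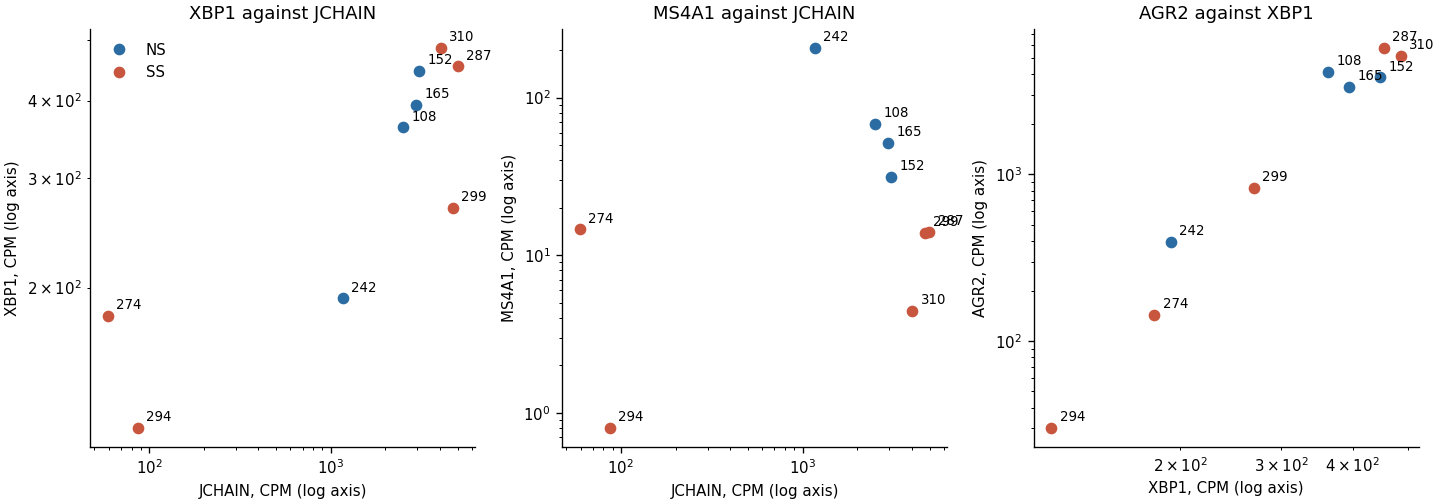
Level in CPM (log axes) of XBP1 against JCHAIN, MS4A1 against JCHAIN and AGR2 against XBP1, with 1 labelled point per steer. SS 274 and SS 294 lie far to the left of the other 7 steers in JCHAIN, and AGR2 goes with XBP1 from SS 294 (119 CPM of XBP1, 30.2 CPM of AGR2) up to SS 287 and SS 310.

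The genes with the most similar pattern differed between JCHAIN and XBP1. Likeness was the Pearson r of log2(CPM + 0.5) over all 9 steers among 2049 tested genes with a symbol, and it is a description that SS 274 and SS 294 weigh on. For JCHAIN these were UBE2J1 (r = 0.98), a ubiquitin-conjugating enzyme of the ER membrane, the thrombin receptor F2R (r = 0.98), the transcription factor MYB (r = 0.97), GCNT4 (r = 0.96) and SCFD1 (r = 0.95), which acts in transport from ER to Golgi. Over the 7 other steers r was 0.68, 0.61, 0.80, 0.91 and 0.70 for these genes. MYB, as an example, was 17.0 and 10.0 CPM in SS 274 and SS 294, 185 to 242 CPM in the other SS and 80.5 to 210 CPM in NS. The gene without a symbol named above, ENSBTAG00000047700, had r = 0.98 over 9 and 0.97 over 7 steers.

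For XBP1 the most similar were the tetraspanin TSPAN3 (r = 0.998), the protease inhibitor SERPINB6 (r = 0.99), the tetraspanin TSPAN13 (r = 0.99), SPINT2 (r = 0.99), a protease inhibitor of epithelium, and NCOA4 (r = 0.99), which takes part in the breakdown of ferritin. TSPAN3 was 200, 274, 244 and 67.2 CPM in NS 108, 152, 165 and 242, and 62.4, 309, 35.9, 125 and 337 CPM in SS 274, 287, 294, 299 and 310. This is the order of XBP1 in every steer. All 10 pan-epithelial genes and all 6 goblet cell genes had r of at least 0.9 with XBP1, as did 6.11% of all genes tested besides JCHAIN and XBP1. For JCHAIN that number was 0 of 10 and 2 of 6, with 1.91% of all genes tested. Of the 5 other genes on the plasma cell list, 1 reached this r with XBP1 and 0 with JCHAIN. The median r with JCHAIN was 0.85 for the pan-epithelial genes, 0.86 for the goblet cell genes and 0.83 for these 5, and with XBP1 it was 0.96, 0.97 and 0.85. By these medians XBP1 was nearer to both epithelial lists than to the other plasma cell genes. Its level in these libraries cannot be read as that of plasma cells alone.

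The other genes on the plasma cell list shared the low end of JCHAIN and XBP1. Of 22 symbols on the plasma cell list, 7 have an identifier here, JCHAIN and XBP1 among them, and the other 15 were not analysed here, so the label rests on few genes. The 5 besides the members were FKBP11, TXNDC5, SEC11C and PRDX4, which fold or process proteins in the ER of secretory cells, and POU2AF1, a transcriptional coactivator of B cells and plasma cells. All 5 were lower in both SS 274 and SS 294 than in every other steer, against 20.0% of all genes tested, 3 of 6 goblet cell genes, 4 of 10 pan-epithelial genes and the 1 T-cell gene. The same held for 27 of 42 genes (64.3%) for translocation, folding and transport in the ER, so it is not particular to plasma cell genes. TXNDC5 was 26.1 and 18.0 CPM in these steers, 63.8 to 87.7 CPM in the other SS and 38.2 to 67.4 CPM in NS.

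On the whole list the log2 difference of SS from NS was below 0 for 7 of 7 genes, against 64.8% of all genes, with a median of -0.34 against -0.13. After median-of-ratios scaling 6 of 7 were below 0, against 48.9% of all genes. Without SS 274 and SS 294 the median was 0.23 against -0.08, with 1 of 7 below 0 against 61.0%. None was called, and POU2AF1 alone had an unadjusted p below 0.05 (log2 difference -2.43; limma, adjusted p = 0.928). POU2AF1 is, like MS4A1, among the genes that the study chose on these steers, so its direction and its place in the count are no independent evidence. POU2AF1 was 71.8, 23.2, 31.3 and 145 CPM in NS 108, 152, 165 and 242 and 7.94, 24.6, 0.534, 33.9 and 11.7 CPM in SS 274, 287, 294, 299 and 310. NS 242, which had the highest POU2AF1 and MS4A1, had the lowest JCHAIN of the NS.

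PIGR, the receptor that carries JCHAIN-linked immunoglobulin, was lowest in the same steers as JCHAIN. It was 11237, 10297, 6217 and 720 CPM in NS 108, 152, 165 and 242, and 389, 8955, 82.2, 8191 and 13499 CPM in SS 274, 287, 294, 299 and 310. The difference of -1.26 (SE 1.60; limma, adjusted p = 0.936) did not pass the test and was 1.06 without SS 274 and SS 294. In SS 299 PIGR was 8191 CPM and JCHAIN 4705 CPM, with AGR2 at 832 CPM. Of the 19 symbols on the list of mucosal IgA, 4 have an identifier here, with PIGR and the chemokine receptor CXCR4 below 0 (log2 difference of CXCR4 -1.43, SE 0.61; limma, adjusted p = 0.928) and the chemokine CXCL12 and the cytokine receptor subunit IL6ST close to 0 (0.02 and 0.09).

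Genes of the ER that XBP1 is known to act on were mostly below 0 with none passing the test. Of 52 symbols for translocation, folding and transport in the ER, 42 were tested. The log2 difference was below 0 for 38 and above 0 for 4, against 64.8% of all genes below 0, and 0 were called by limma or had an unadjusted p below 0.05, against 3.96% of all genes. After median-of-ratios scaling 31 of 42 were below 0, against 48.9% of all genes, and without SS 274 and SS 294 it was 14 of 42, against 61.0%. The median was -0.26 (-0.11 after median-of-ratios scaling), against -0.13 (0.01) for all genes tested, and 0.14 against -0.08 without SS 274 and SS 294. HSP90B1, an ER chaperone and the gene of the list with the highest mean CPM (not corrected for length), was 1675, 1452, 981 and 847 CPM in NS 108, 152, 165 and 242 and 600 CPM in SS 274, 1588 CPM in SS 287, 562 CPM in SS 294, 1232 CPM in SS 299 and 1955 CPM in SS 310. SSR4, a subunit next to the translocation channel, had the lowest difference (-0.69), and SEC63, which works at that channel, had the highest (0.20).

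More of the ER genes had a pattern over the steers like that of XBP1 than like that of JCHAIN, as a description with no test. Of the 42, 24 had r of at least 0.9 with XBP1 and 2 with JCHAIN, with a median r of 0.91 and 0.80. Over all genes tested the shares with this r were 6.11% with XBP1 and 1.91% with JCHAIN. SS 274 and SS 294 were both below every other steer for 27 of the 42 (64.3%), against 20.0% of all genes. Of 15 symbols for regulators of the unfolded protein response, 3 were tested beside XBP1. The differences were -0.47 for HERPUD1, which aids the removal of misfolded proteins, -0.18 for the transcription factor ATF4 and -0.04 for RTCB, the ligase that joins spliced XBP1 mRNA, and none passed the test. RTCB ranged from 90.0 to 123 CPM over the 9 steers, against 119 to 486 CPM for XBP1.

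**Figure D5:**
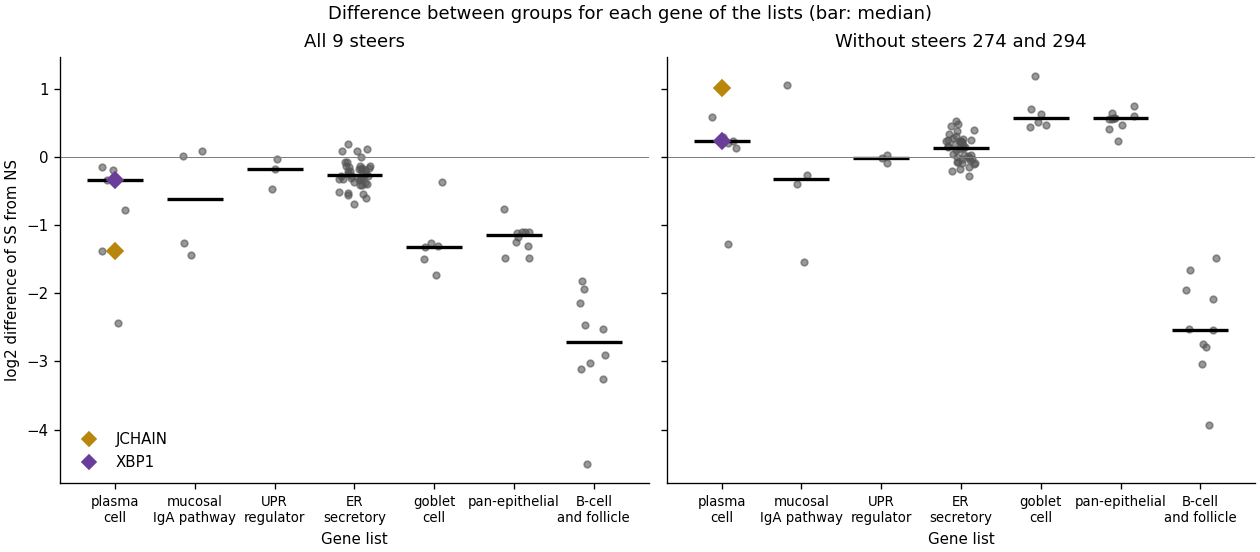
Log2 difference of SS from NS for each gene of 7 lists over all 9 steers (left) and without SS 274 and SS 294 (right), with the median of each list as a bar and JCHAIN and XBP1 as diamonds. JCHAIN is at -1.38 on the left and 1.01 on the right, and XBP1 at -0.34 and 0.23, and the B-cell and follicle genes are below 0 in both.

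The lists of other cell types were read beside JCHAIN and XBP1. All 6 goblet cell genes and all 10 pan-epithelial genes had a difference below 0, against 64.8% of all genes, with medians of -1.31 and -1.15. Without SS 274 and SS 294 none of these 16 was below 0, against 61.0% of all genes, and the medians were 0.57 each, which is the change of sign that JCHAIN and XBP1 made. This omission kept NS 242, where the summed pan-epithelial level was 671 CPM, against 802 CPM in SS 274. No fit left out NS 242 as well, so steers with little epithelial RNA were left out of SS only. All 10 B-cell and follicle genes, which the study chose on these steers, were below 0 with a median of -2.72 and of -2.54 without those steers. The summed level of these 10 genes was 13.1 to 73.2 CPM in SS and 185 to 1006 CPM in NS, with no overlap, while the sum of the 5 plasma cell genes other than JCHAIN and XBP1 was 64.5 to 296 CPM in SS and 195 to 320 CPM in NS. Of the fibroblast genes 0 of 5 were below 0, with a median of 0.38, and without SS 274 and SS 294 4 of 5 were below 0, with a median of -0.68. Of the smooth muscle genes 7 of 8 were below 0 (median -0.53), and 8 of 8 without those steers (-0.48). All 4 macrophage genes were below 0 with a median of -0.12 and of -0.38 without those steers, while 1 of 4 was below 0 after median-of-ratios scaling (median 0.03). The 1 T-cell gene, CD3G, was at -1.27 and at -0.59 without those steers. The part of these cell types in the levels of JCHAIN and XBP1 was not tested.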

How the data were processed

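RNA-Seq was done on whole rectal tissue of 5 SS and 4 NS. The authors mapped stranded reads to UMD3.1 with TopHat2 and Ensembl gene models and deposited a table of CPM per gene. The submitters' processing notes also name HTSeq and edgeR, with no role. In each library every value was a whole multiple of 1 read within 0.01 reads, so counts were recovered (totals of 5412523 to 12278503 reads, which limit the precision of low genes).

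The main test was limma 3.58.1 (R 4.3.3) on log2(CPM + 0.5), with the intensity trend in its eBayes step, for the 15410 genes that reached 0.5 CPM in 4 steers or more, and p was adjusted over all of them by Benjamini-Hochberg. A fold change on this scale understates that of low genes. edgeR 4.0.16 (quasi-likelihood) and DESeq2 1.42.0 were run on the recovered counts. Single values and ratios were tested by exact permutation over steers, on both sides, with scipy 1.17.1, numpy 2.4.6 and pandas 2.3.3 in Python 3.11.15, and plots were made with matplotlib 3.10.9. Counting intervals are exact binomial 95% intervals. Scripts were tested on simulated data.

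JCHAIN and XBP1, the gene lists and the tests were chosen with earlier results of these data known. The genes named are these, the references, the 5 most similar genes with a symbol for each, and from each list the most abundant, the highest and the lowest in difference, or others that a sentence needs. Symbols came from identifiers paired with names in the supplementary tables of the study, of which only the pairs were used (2052 identifiers, 1 of the tables in part), so genes of a list without a pair were not analysed here. Correlations had been planned over 9 steers and are given over 7, because of the clusters of JCHAIN. No positions or sequences are given, since no reference of the build was used. Nothing says that the biopsies of a steer were sequenced apart, and the steer is the replicate.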

Additional observations from a re-analysis of the deposited data

Results flagged for a closer look

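Of 42 sets of values within SS or NS that were checked, 4 had 1 steer far from the others by Dixon's criterion, which chance alone meets in about 1 of 20 sets, and no set of JCHAIN or XBP1 levels was among them. The log2 ratio of AGR2 to MS4A1 was 0.94 in NS 242 and 5.92 to 6.91 in the other NS. The T-cell gene CD3G was at 107 CPM in NS 242, against 19.5 to 24.6 CPM in the other NS. The summed level of 4 macrophage genes was 854 CPM in NS 242, against 246 to 329 CPM in the other NS, and 1113 CPM in SS 274, against 209 to 330 CPM in the other SS. NS 242 is also the NS with the lowest JCHAIN and XBP1, and SS 274 is the steer with the lowest JCHAIN.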

How the results depend on the processing

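Leaving out SS 274 and SS 294, a step chosen after seeing the data, turned the difference of JCHAIN (to 1.01), XBP1 (0.23) and AGR2 (0.44), the ratio of JCHAIN to XBP1 (0.78) and of XBP1 to AGR2 (-0.21), and moved the median of the ER list to 0.14. This step kept NS 242, the NS with the least epithelial RNA, and no fit left out that steer as well. On recovered counts JCHAIN was 0.27 in edgeR and 0.28 in DESeq2, where the cause was not tested. Other pseudocounts, filters, scalings, variance models and weights kept the direction of JCHAIN, XBP1, MS4A1 and AGR2, but array weights brought JCHAIN to -0.36, median-of-ratios scaling brought XBP1 to -0.19, and edgeR and DESeq2 brought XBP1 to -0.11 and -0.09, AGR2 to -0.20 and -0.19 and the median of the ER list to -0.06 and -0.04. The cause was not tested. With 1 steer left out in turn the differences ranged from -2.02 to -0.42 for JCHAIN, -0.60 to -0.05 for XBP1, -3.64 to -2.64 for MS4A1, -2.55 to -0.64 for AGR2 and -0.44 to -0.08 for the ER list. The log2 ratio of XBP1 to MS4A1 ranged from 2.14 to 3.44, with exact permutation p from 0.0286 to 0.0714 and 7 of 9 omissions above 0.05, that of JCHAIN to MS4A1 from 1.04 to 3.11, of JCHAIN to XBP1 from -1.65 to -0.22 and of XBP1 to AGR2 from 0.59 to 2.00. The correlation of JCHAIN with XBP1 over the 7 steers ranged from -0.076 without NS 242 to 0.95 without SS 299 (6 steers each). It is a description with no p, since the 7 steers were set by JCHAIN itself. Genes called, 0 in limma and edgeR, with 610 and 597 at an unadjusted p below 0.05, were 2 with array weights, 19 in DESeq2 and 0 to 1 with a steer left out, 1 without NS 108 and 1 without SS 299. No paired analysis was possible because SS and NS share no steer or replicate number. Depth did not limit JCHAIN or XBP1, but MS4A1 had 6 reads in SS 294. SS 274 had the fewest reads on genes (5412523), and the study lists the lowest share of mapped reads for its library. The part of this in its levels was not tested.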
